A study of Mus musculus with 10 samples.

Results

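The 9 genes described here encode the fatty acid elongases Elovl1, Elovl2, Elovl3, Elovl5 and Elovl6 and the fatty acid desaturases Fads1, Fads2, Scd1 and Scd2. They were taken by gene symbol from a table of 51911 mouse genes, each symbol matched 1 row, and all 9 were among the 13619 genes with enough reads to be tested. RNA was sequenced from the livers of C57BL/6 mice, 5 samples labelled Cpt1a L-/- (CKO) and 5 labelled wild type (WT). Both genotypes had been fed HFD, a high-fat diet, for 8 weeks, and no other diet was analysed here. Cpt1a encodes carnitine palmitoyltransferase 1A, which passes long-chain acyl groups into liver mitochondria to be oxidised. The sources used here do not give the Cre driver, the age, the sex or whether a sample was 1 animal, and p-values thus cover only the spread between samples, which may in part be technical.

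Elongases lengthen acyl-CoA chains by the first, rate-setting condensation step of a cycle in the endoplasmic reticulum membrane, and desaturases introduce double bonds with electrons passed on by cytochrome b5. One route, through Fads2, Elovl5, Fads1 and Elovl2, converts the essential fatty acids linoleic and alpha-linolenic acid into arachidonic and docosahexaenoic acid. The others act on palmitate, whether made by the cell or eaten: Elovl6 lengthens it to stearate, Scd1 and Scd2 make palmitoleate and oleate, and Elovl1 and Elovl3 build very long saturated and monounsaturated chains. In mouse liver the lipogenic factor SREBP-1c is known to act on both kinds of route, and PPAR alpha on several of the same genes.

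Library totals ran from 23990970 to 25200273 counts in CKO and from 20599078 to 26955922 counts in WT livers. Levels are given as CPM (counts scaled to library size) after TMM scaling, and as TPM (transcript abundances, which are per length) where genes are compared with each other. Cpt1a was at 70.5 to 93.9 CPM in CKO livers, against 319.7 to 503.7 CPM in WT livers, so all 10 libraries went with their labels. Markers of hepatocytes summed to between 74790 and 88590 CPM in CKO and between 84410 and 104000 CPM in WT libraries. Of these 8 markers 6 were lower in CKO livers, or 5 with scaling by library totals alone. The first principal component of all genes, with 34.2% of the variance, crossed genotype: CKO replicates 2, 3 and 5 and WT replicates 1 and 2 lay on one side of it. In bulk liver, fewer cells of a type and less RNA per cell cannot be told apart.

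Of the 9 genes, Elovl2 was the single one whose level changed by the test over all genes, edgeR's quasi-likelihood test with a Benjamini-Hochberg adjusted p under 0.05. Over all 13619 genes that test called 0.132%, of which 0.0808% were higher and 0.0514% lower in CKO livers. All 4 genes of the polyunsaturated route had a positive log2 fold change, from 0.37 for Fads1 to 0.84 for Fads2, with a median of 0.53. Of the 5 other genes 4 were negative, with a median of -0.17, although Elovl3 (-0.09) turned positive with scaling by library totals alone, with both TPM fits and with limma-voom. The median over all genes tested was -0.02. Libraries of the genotypes did not overlap in CPM for 2 of the 9 genes, Elovl2 and Scd1, where 1.05% of all genes tested were so separated, 0.521% with CKO higher and 0.529% with CKO lower.

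**Figure D1:**
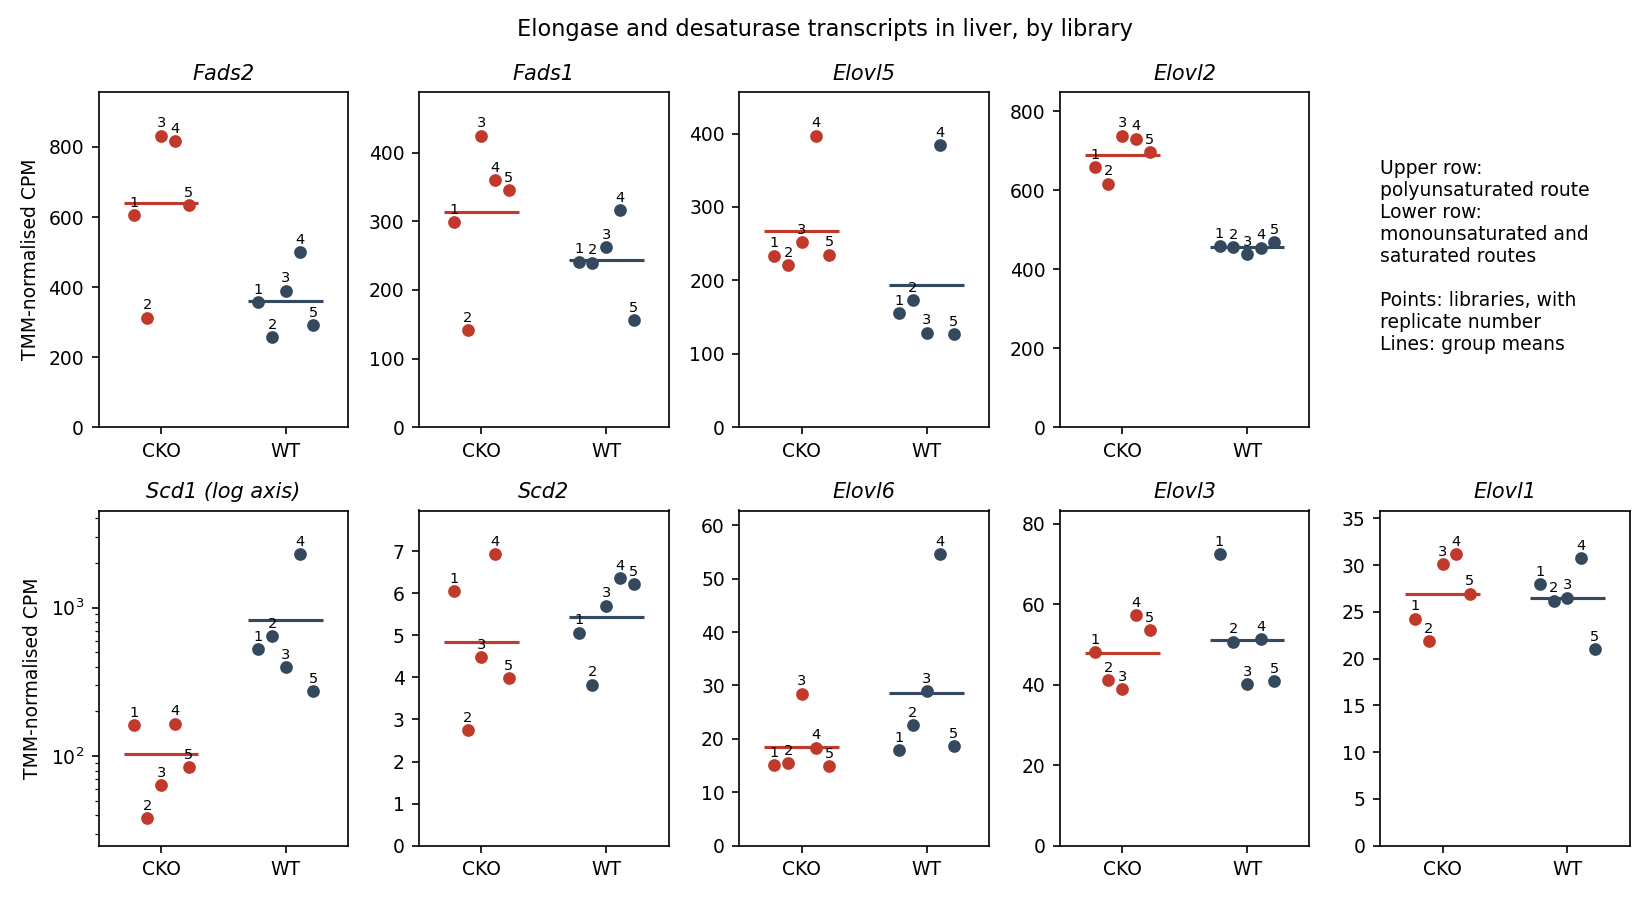
TMM-normalised CPM (vertical axis, logarithmic for Scd1 only) of each gene in the 5 CKO and 5 WT libraries, with points for libraries, replicate numbers above them and lines for group means. The Elovl2 libraries lie at 616 to 738 CPM in CKO and 439 to 468 CPM in WT livers, and WT replicate 4 stands at 2292 CPM for Scd1.

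Elovl2 lengthens the longer polyunsaturated acyl chains and is needed for docosahexaenoic acid in mouse liver. Its level was 658, 616, 738, 730.1 and 696 CPM in CKO replicates 1 to 5, against 459, 455, 439, 454 and 468 CPM in WT replicates 1 to 5. Every CKO library lay above every WT library, and the WT libraries lay close together, with an SD of 10.6 CPM on a mean of 455. The log2 fold change was 0.60 ± 0.10 (SE, n = 5 each), that is 1.51-fold, and edgeR's adjusted p was 0.0478. On log2 CPM, a two-sided exact permutation test gave its smallest possible value with 5 against 5 libraries, p = 0.0079. The call stood close to its threshold: without any 1 library the edgeR adjusted p was between 0.0552 and 0.162, with log2 fold changes of 0.57 to 0.63. In TPM the libraries overlapped, because CKO replicate 2 was at 134.7 TPM, below WT replicates 4 and 5 at 145.8 and 151.8 TPM, and with limma on log2(TPM + 1) the adjusted p was 0.424.

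Fads2 performs the first and limiting desaturation of linoleic and alpha-linolenic acid. It was at 606, 313, 832, 818 and 634 CPM in CKO replicates 1 to 5, against 357, 256, 389.9, 499 and 292 CPM in WT replicates 1 to 5. In 4 of 5 CKO livers it exceeded every WT liver, while CKO replicate 2 lay below WT replicates 1, 3 and 4. The log2 fold change of 0.84 ± 0.25 did not pass (edgeR adjusted p = 0.507, exact permutation p = 0.0397). Without CKO replicate 2 it was 1.01 (adjusted p = 0.142).

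Fads1, which performs the later desaturation that yields arachidonic and eicosapentaenoic acid, lies next to Fads2. It was at 299, 141, 425, 359.5 and 345 CPM in CKO replicates 1 to 5, against 241, 239.5, 263, 316 and 156 CPM in WT replicates 1 to 5. The lowest CKO library, replicate 2, lay below all WT libraries, and 3 of 5 CKO libraries lay above all of them. The log2 fold change was 0.37 ± 0.26 (edgeR adjusted p = 1.0, exact permutation p = 0.357). Without CKO replicate 2 it was 0.56, and without CKO replicate 3 it was 0.23.

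Elovl5 lengthens the products of Fads2 and takes part in both arms of the polyunsaturated route. Its level was 234, 221, 252, 397 and 235 CPM in CKO replicates 1 to 5, against 156, 173, 128.5, 384 and 127 CPM in WT replicates 1 to 5. One library of each genotype, replicate 4 in both, stood far above the rest, and apart from WT replicate 4 every CKO library lay above every WT library. The log2 fold change of 0.47 ± 0.30 did not pass (edgeR adjusted p = 1.0, exact permutation p = 0.135). It was 0.87 without WT replicate 4 (adjusted p = 0.175) and 0.28 without CKO replicate 4 (adjusted p = 0.996). The labels do not say that samples of the same number belong together.

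Promoters from RefSeq (GRCm38.p6) were at hand for 5 of the 9 genes, with 2 windows each for Elovl1 and Elovl2 and 1 each for Elovl5, Elovl6 and Fads2. One window is shown for each of the 3 polyunsaturated-route genes among them, for Elovl2 the one that holds motif matches. Each runs from 250 bases before to 50 after a transcript start and is written along the gene's strand. Capitals mark matches on either strand to GGGCGG (the Sp1 site), CCAAT (NF-Y), CACGTG (E-box), TCACNCCAC (a sterol response element) and the perfect DR1 and DR4 nuclear receptor repeats, and no matches shown overlap.
Elovl2, chr13:41220354-41220653, minus strand: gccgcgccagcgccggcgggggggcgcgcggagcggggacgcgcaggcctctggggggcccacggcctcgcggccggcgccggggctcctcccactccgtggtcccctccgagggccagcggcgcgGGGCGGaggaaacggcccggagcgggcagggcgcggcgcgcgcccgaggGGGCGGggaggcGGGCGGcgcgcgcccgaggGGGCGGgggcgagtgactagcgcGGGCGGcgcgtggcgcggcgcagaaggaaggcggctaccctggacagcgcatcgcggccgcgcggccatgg
Elovl5, chr9:77917115-77917414, plus strand: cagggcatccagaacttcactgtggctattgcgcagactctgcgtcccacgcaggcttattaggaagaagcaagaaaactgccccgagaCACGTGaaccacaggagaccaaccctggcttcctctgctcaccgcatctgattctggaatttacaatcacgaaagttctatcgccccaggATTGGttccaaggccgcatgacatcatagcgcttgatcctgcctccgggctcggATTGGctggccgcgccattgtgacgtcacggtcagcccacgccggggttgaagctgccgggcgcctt
Fads2, chr19:10101454-10101753, minus strand: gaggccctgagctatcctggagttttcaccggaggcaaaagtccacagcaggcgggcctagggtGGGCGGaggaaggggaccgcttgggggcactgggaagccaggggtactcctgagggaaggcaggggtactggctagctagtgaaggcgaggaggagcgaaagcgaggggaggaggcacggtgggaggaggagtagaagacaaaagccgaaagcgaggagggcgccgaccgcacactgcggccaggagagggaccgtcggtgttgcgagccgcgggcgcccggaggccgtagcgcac
The Elovl2 window shown is 84.7% G and C and holds 5 copies of GGGCGG, while its other window (chr13:41220113-41220412, 76.7% G and C) holds no match to any of the motifs. GGGCGG also occurs 5 times in one window of Elovl1, whose fold change was 0.02 on the log2 scale, and 2 times in the other. The Fads2 window holds 1 copy, and those of Elovl5 and Elovl6 hold none. The Elovl5 window has 2 copies of CCAAT, both on the opposite strand, and 1 of CACGTG. Among 32851 promoters of the same length GGGCGG occurs in 35.7%, CCAAT in 37.4% and CACGTG in 7.15%. The exact letters of the sterol response element, the DR1 site and the DR4 site are in none of these 3 windows and in 1.24%, 0.0396% and 0.0152% of all promoters.

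Scd1, the main stearoyl-CoA desaturase of adult mouse liver, had the largest difference of the 9 genes. It was at 161, 38.2, 64.1, 166 and 84.7 CPM in CKO replicates 1 to 5, against 527, 642, 398, 2292 and 274 CPM in WT replicates 1 to 5. Every CKO library lay below every WT library, although the WT libraries differed among themselves by more than any other gene of the 9, with a coefficient of variation of 115% in TPM. The log2 fold change was -3.01 ± 0.60 (edgeR adjusted p = 0.106, exact permutation p = 0.0079), and it did not pass. DESeq2 called it (adjusted p = 0.0014), where that tool called 0.683% of all genes. Without WT replicate 4 the WT mean was 460.3 ± 159 CPM (SD, n = 4) and the log2 fold change -2.16 (edgeR adjusted p = 0.0871). Among the other 9 fits without 1 library it ran from -3.26 to -2.80.

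Scd2, a close relative that is high in brain and in neonatal liver, was low in all libraries, between 2.74 and 6.93 CPM in CKO and between 3.83 and 6.36 CPM in WT livers. Its libraries overlapped, and its log2 fold change was -0.17 ± 0.24 (edgeR adjusted p = 1.0). In length-scaled terms Scd1 stood above Scd2 by 4.48 ± 0.43 on the log2 TPM scale in CKO livers and by 7.05 ± 1.16 in WT livers (SD, n = 5 each). Of the 50-base stretches of Scd1 transcripts 4.56% also occur in transcripts of other genes, chiefly Scd3, Scd2 and Scd4, and 3.97% of those of Scd2 do, so a few reads of these genes cannot be assigned with certainty. Scd3 and Scd4 themselves had 0 and 2 counts in all CKO libraries together, and 2 and 4 in all WT libraries.

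Elovl6, which lengthens palmitate to stearate, was at 15.1, 15.4, 28.5, 18.4 and 14.9 CPM in CKO replicates 1 to 5, against 17.9, 22.5, 29.0, 54.6 and 18.6 CPM in WT replicates 1 to 5. The highest values were those of CKO replicate 3 and WT replicates 3 and 4, and the groups overlapped. The log2 fold change was -0.63 ± 0.30 (edgeR adjusted p = 1.0, exact permutation p = 0.167) and was -0.25 without WT replicate 4 and -0.84 without CKO replicate 3. Of the 50-base stretches of Elovl6 3.98% recur in other genes, most of them in Gm11295.

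Elovl3, known in mouse liver for a daily rhythm and for higher levels in males, lay between 38.9 and 57.3 CPM in CKO and between 40.1 and 72.4 CPM in WT livers. Its highest library was WT replicate 1, without which the log2 fold change of -0.09 ± 0.17 (edgeR adjusted p = 1.0) was 0.06. Elovl1, which makes very long saturated and monounsaturated chains in most tissues, lay between 21.9 and 31.2 CPM in CKO and between 20.99 and 30.75 CPM in WT livers. Its log2 fold change was 0.02 ± 0.13 (edgeR adjusted p = 1.0), and it turned negative without CKO replicate 3 or 4 or WT replicate 5. For neither gene did the groups stand apart, and the ranges of both genotypes nearly coincide for Elovl1.

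**Figure D2:**
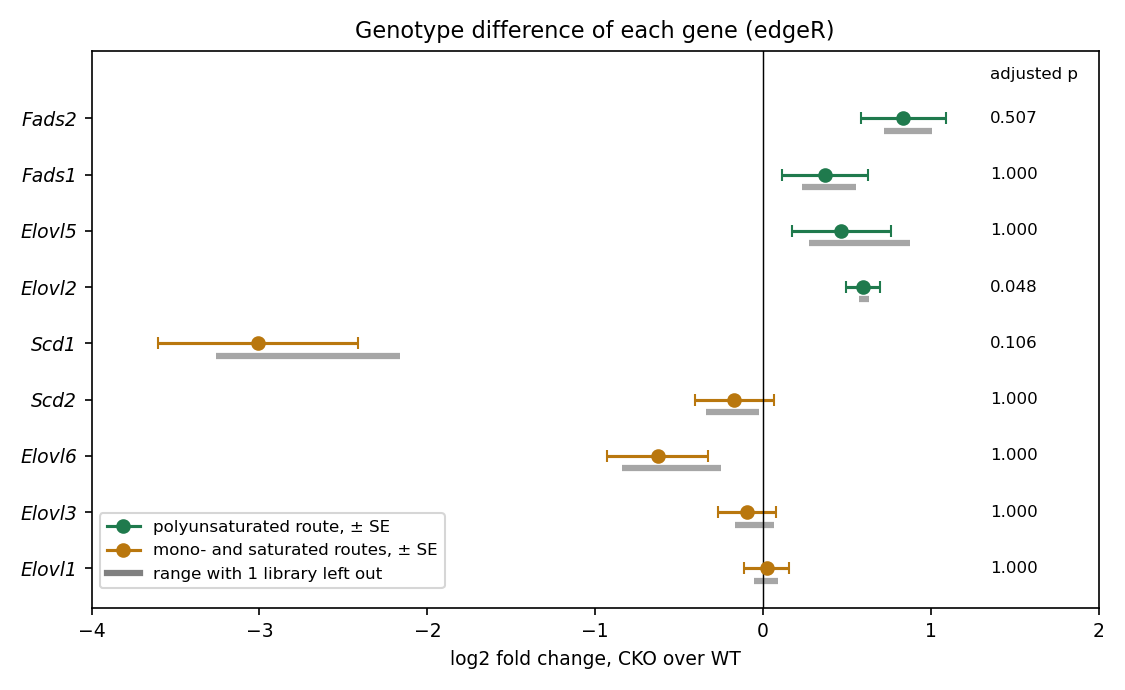
Log2 fold change of each gene, CKO over WT (horizontal axis), with its SE as bars, the range over fits without 1 library in grey and the edgeR adjusted p at the right. The 4 polyunsaturated-route genes lie between 0.37 and 0.84, and Scd1 lies at -3.01 with the widest error.

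Per length, Fads2 had the highest mean level of the 9 genes in both genotypes, 589 ± 249 TPM in CKO and 303 ± 115 TPM in WT livers (SD, n = 5 each). In CKO livers Elovl2 (208 ± 45.2 TPM), Elovl5 (112 ± 41.1), Fads1 (105 ± 45.3), Elovl3 (41.0 ± 10.4), Elovl1 (25.1 ± 6.55), Scd1 (24.2 ± 14.6), Elovl6 (3.52 ± 1.54) and Scd2 (0.984 ± 0.411) followed. In WT livers the order was Scd1 (186 ± 213 TPM), Elovl2 (126 ± 23.4), Elovl5 (76.0 ± 52.8), Fads1 (72.9 ± 23.4), Elovl3 (39.7 ± 8.44), Elovl1 (22.8 ± 4.12), Elovl6 (5.12 ± 3.42) and Scd2 (1.03 ± 0.355). The position of Scd1 was the main difference between the orders, seventh in CKO and second in WT livers. Its second place rested on WT replicate 4, without which the WT mean was 90.5 TPM for Scd1 and 121 TPM for Elovl2. Within WT livers Scd1 exceeded Elovl2 in only 2 of 5 libraries, so these neighbours did not differ beyond their spread, and neither did Elovl5 and Fads1, where Elovl5 was the higher in 2 of 5 libraries of each genotype. In CKO livers Elovl1 exceeded Scd1 in 3 of 5 libraries.

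Scd1 made up 3.60%, 1.31%, 1.14%, 2.83% and 1.79% of the summed TPM of the 9 genes in CKO replicates 1 to 5, against 14.8%, 19.9%, 12.4%, 36.3% and 10.1% in WT replicates 1 to 5. The 4 polyunsaturated-route genes supplied between 89.7% and 93.5% of that sum in CKO and between 58.0% and 80.6% in WT livers. These shares did not overlap between genotypes. The sums themselves did, at 492 to 1455 TPM in CKO and 526 to 1558 TPM in WT livers. The sum includes Scd1, so the polyunsaturated share is not independent of the Scd1 share. On average Scd1 took 2.13% of the sum in CKO and 18.7% in WT livers, and the polyunsaturated-route genes 91.1% and 72.3%. The summed TPM of the polyunsaturated-route genes alone overlapped, at 442 to 1355 in CKO and 368 to 903 in WT livers. No share without Scd1 in the sum is given. The ratio of Fads2 to Scd1 in TPM was 14.5, 32.2, 50.5, 19.04 and 29.3 in CKO replicates 1 to 5, against 2.66, 1.58, 3.60, 0.843 and 4.11 in WT replicates 1 to 5. The ratio of Fads2 to Fads1 overlapped between genotypes, at 5.07 to 6.22 in CKO and 3.01 to 5.11 in WT livers. WT replicate 4 was the single library with more Scd1 than Fads2 per length. The shares and ratios are scores over genes picked with earlier results known, and no test is given for them.

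**Figure D3:**
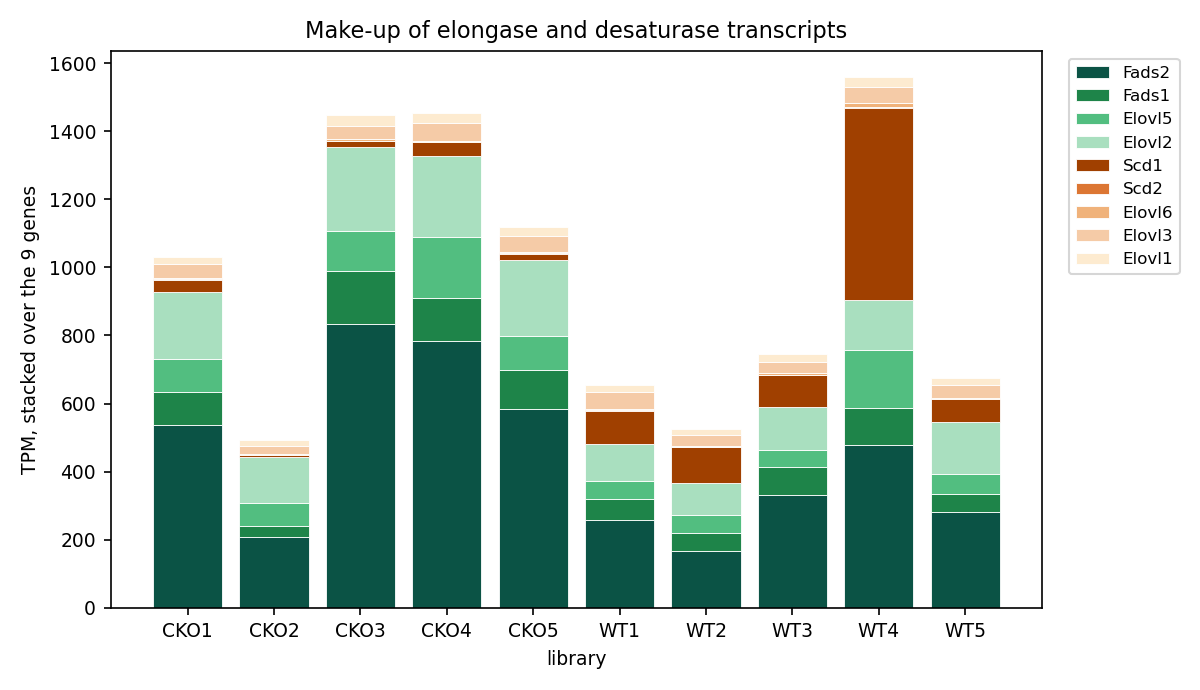
TPM of the 9 genes stacked for each library (vertical axis), CKO libraries at the left and WT libraries at the right, with greens for the polyunsaturated route and browns for the others. Scd1 takes 1.14% to 3.60% of the stack in CKO and 10.1% to 36.3% in WT livers, and CKO replicate 2 has the lowest sum, 492 TPM.

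The mean log2 CPM of the 4 polyunsaturated-route genes was 8.73 ± 0.37 in CKO and 8.16 ± 0.31 in WT livers, and that of the 5 other genes was 4.64 ± 0.35 in CKO and 5.35 ± 0.41 in WT livers (SD, n = 5 each). Each of these means overlapped between genotypes. Their difference within a library, polyunsaturated minus the rest, was 3.86, 4.02, 4.34, 4.04 and 4.20 in CKO replicates 1 to 5, against 2.82, 2.81, 2.89, 2.62 and 2.89 in WT replicates 1 to 5. The difference spread less than the means it came from, with an SD of 0.18 in CKO and 0.11 in WT livers, and it stood 1.29 higher in CKO livers. Without Scd1 it was 4.55 ± 0.16 in CKO and 3.78 ± 0.09 in WT livers, 0.77 higher and still without overlap. Leaving out any 1 library gave 1.22 to 1.34 for the difference with Scd1. CPM are not per length, so only the contrast between genotypes, not the size of the difference, can be read here.

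**Figure D4:**
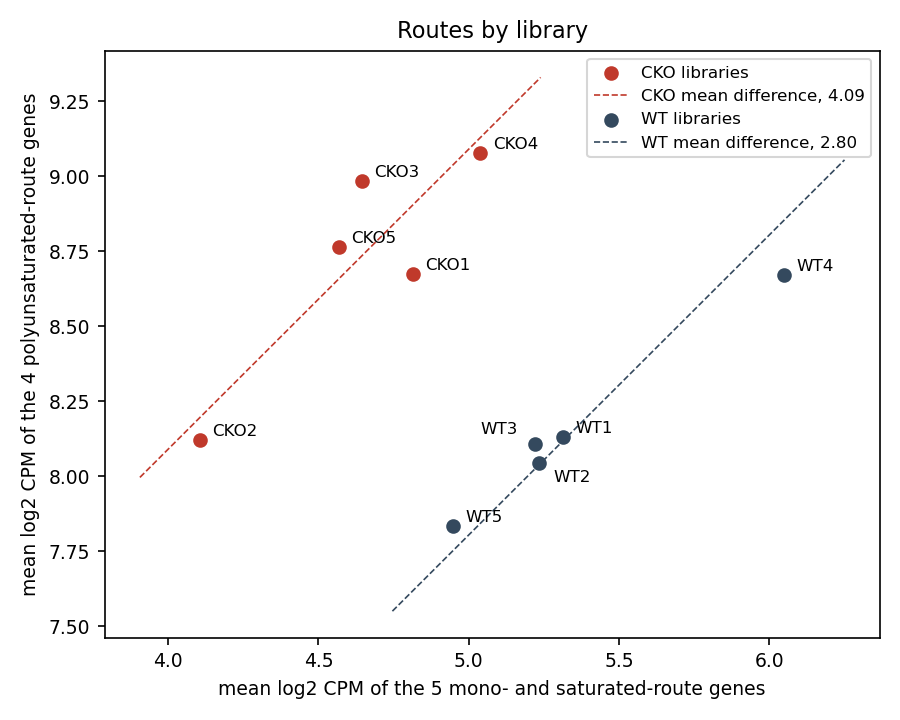
Mean log2 CPM of the 4 polyunsaturated-route genes (vertical axis) against that of the 5 monounsaturated and saturated-route genes (horizontal axis) for each library, with dashed lines at each genotype's mean difference, 4.09 for CKO and 2.80 for WT. Libraries of a genotype move along its line, and the lines are 1.29 apart.

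Libraries that were high or low for one gene tended to be so for several. CKO replicate 2 had the lowest CKO level of 7 of the 9 genes, all but Elovl3 and Elovl6, and it was the lowest CKO library for 31.3% of all genes tested. WT replicate 4 had the highest WT level of 7 genes, all but Elovl2 and Elovl3, against 18.1% of all genes tested. WT replicate 5 was the lowest WT library for Elovl1, Elovl5, Fads1 and Scd1, and for 15% of all genes tested. CKO replicates 3 and 4 shared the highest CKO levels, of 4 and 5 genes, against 17.2% and 21.2% of all genes tested. These libraries lay on both sides of the first principal component, CKO replicate 2 on one and WT replicate 4 on the other. Elovl2 took little part, with deviations from the genotype mean between -0.16 and 0.10 on the log2 scale in CKO and between -0.05 and 0.04 in WT livers. Scd1 spread most, from -1.22 to 0.90 in CKO and from -1.16 to 1.91 in WT livers.

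**Figure D5:**
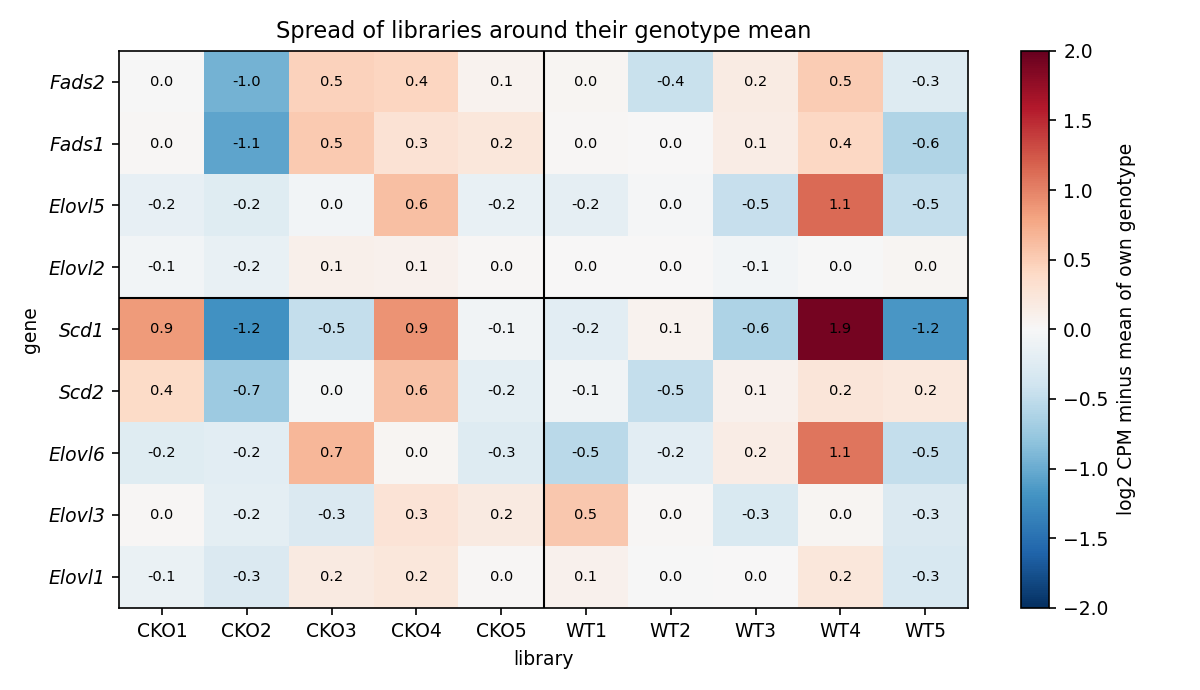
Log2 CPM of each gene (rows) in each library (columns) minus the mean of its own genotype, as colour and number. WT replicate 4 is highest at 1.91 for Scd1, CKO replicate 2 is low for Fads1 (-1.06), Fads2 (-0.95) and Scd1 (-1.22), and the Elovl2 row is nearly flat.

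Summed markers of other cell types overlapped between genotypes, and 0 of the marker genes passed by edgeR or by DESeq2. An unadjusted edgeR p under 0.05 was found for 6 markers, and for 4.82% of all genes tested. The 6 were 2 of 8 stellate cell and fibroblast markers (Lum and Col3a1), 2 of 5 cholangiocyte markers (Sox9 and Spp1) and 2 of 7 lymphocyte markers (Ms4a1 and Cd4). All 6 were lower in CKO livers. Stellate cell and fibroblast markers summed to 153 to 229 CPM in CKO and 161 to 290.4 CPM in WT livers, with all 8 lower in CKO livers, or 7 of 8 on library totals, and endothelial markers to 219 to 321 CPM in CKO and 211 to 332 CPM in WT livers, also with 8 of 8 lower, or 5 of 8 on library totals. Kupffer cell markers summed to 459 to 593 CPM in CKO and 459 to 604 CPM in WT livers, with 6 of 8 lower, or 1 of 8 on library totals and with the TPM fits. Cholangiocyte markers summed to 21.5 to 49.9 CPM in CKO and 39.0 to 124 CPM in WT livers, the highest being WT replicate 4, the library that was also highest for Scd1. Of these markers 4 of 5 were lower in CKO livers (median log2 fold change -0.58), or 3 of 5 without WT replicate 4 (median -0.13). Adipocyte markers summed to 13.7 to 68.3 CPM in CKO and 21.8 to 88.9 CPM in WT livers, again highest in WT replicate 4, while Adipoq, Plin1, Lep, Ucp1 and Retn had too few counts to test. Lymphocyte markers summed to 4.16 to 6.24 CPM in CKO and 4.96 to 7.46 CPM in WT livers, with 5 of 7 lower. The part of these cell types in the levels of the 9 genes was not tested.

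A p under 0.05 stood beside 4 of the 9 genes in the authors' deposited table, and beside 5.24% of all genes tested. These were Elovl2 (log2 fold change 0.57, p = 1.49e-14), Scd1 (-0.54, p = 9.04e-05), Fads2 (0.53, p = 0.0012) and Elovl6 (-0.34, p = 0.0433) in the authors' deposited table, which does not say whether its p was adjusted. The deposited fold change of Scd1 was far smaller in size than the -3.01 that both edgeR and DESeq2 gave here. Those of Fads2 and Elovl6 were also smaller than edgeR's 0.84 and -0.63. The settings behind the deposited fold changes are not given, so their sizes may not be on the same scale. In the fit used here 3 of the 9, Elovl2, Scd1 and Fads2, had an unadjusted p under 0.05, as did 4.82% of all genes tested. The deposited share of 5.24% lay near that, while DESeq2 called 0.683% by adjusted p. The deposited p is thus read as unadjusted.

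Other genes of the same pathways were read from 12 lists with 105 genes, of which 95 could be tested. None of the 95 passed by edgeR, and 9 had an unadjusted p under 0.05, as did 4.82% of all genes tested. DESeq2 called Thrsp, Srebf1 and Ehhadh (adjusted p = 4.36e-05, 0.00866 and 0.00329), and 0.683% of all genes. The enzymes that complete each round of elongation after the Elovl step had small differences in all 6 genes, with log2 fold changes from -0.10 for Hacd2 to 0.19 for Hacd1. Hacd3, a dehydratase of that cycle, was at 184 ± 13.7 CPM in CKO and 165 ± 20.7 CPM in WT livers (edgeR adjusted p = 1.0). Among electron donors of desaturases 3 of 5 were negative (median -0.14), but 2 of 5 without WT replicate 2 (median 0.01), with the reductase gene Cyb5r3 at -0.25 ± 0.13 and Cyb5b at -0.14 ± 0.12. The related desaturase genes Fads3 and Fads6 were at 0.37 ± 0.24 and 0.14 ± 0.18, and Elovl4 and Elovl7 had too few reads to test.

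Palmitate synthesis, which supplies Elovl6 and Scd1, was negative in 8 of 8 genes, with a median log2 fold change of -0.53 where all genes had -0.02, and in 7 of 8 with upper-quartile factors, library totals, limma-voom, the TPM fits and the replicate block. Without WT replicate 4 the median was -0.27 with 7 of 8 negative, and over the other fits without 1 library it lay between -0.64 and -0.36. There too, 7 of 8 were negative without CKO replicate 1, 2 or 4 or WT replicate 1 or 2. The gene with the smallest difference, Slc25a1, was at -0.01 ± 0.16. Thrsp, a lipogenic nuclear protein gene, was at 92.4, 151, 193, 124 and 228 CPM in CKO replicates 1 to 5, against 548, 505, 352, 539 and 245 CPM in WT replicates 1 to 5, without overlap (log2 fold change -1.47 ± 0.27, edgeR adjusted p = 0.0668). It passed without WT replicate 5 (adjusted p = 0.031). Acss2, which makes acetyl-CoA, was at -0.36 ± 0.15 (edgeR adjusted p = 0.991). Of 14 regulators 8 were negative (median -0.01), a split that turned to 2 with library totals and to 4 without WT replicate 4. Srebf1, which encodes SREBP-1, was at 184, 149, 244, 164 and 171 CPM in CKO replicates 1 to 5, against 302, 247, 307, 283 and 260.2 CPM in WT replicates 1 to 5, also without overlap (-0.62 ± 0.14, edgeR adjusted p = 0.203). Mbtps1, the regulator gene with the next smallest p, was at 0.16 ± 0.11. The genes of the glucose-sensing factor ChREBP (Mlxipl, 0.05 ± 0.21), of LXR alpha (Nr1h3, 0.00 ± 0.16) and of PPAR alpha (Ppara, -0.03 ± 0.18) were chosen after their values were seen.

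Of 10 peroxisomal genes of fatty acid transport and metabolism 7 were positive (median 0.08). Only 4 were so without CKO replicate 4 (median -0.07), and 5 without CKO replicate 1 or WT replicate 1. They were led by the reductase gene Decr2 at 277 ± 13.7 CPM in CKO and 231 ± 15.6 CPM in WT livers (0.26 ± 0.10, edgeR adjusted p = 0.811) and the transporter gene Abcd2 at 0.61 ± 0.31. Phospholipid acyltransferases, which place acyl chains in membrane lipids, were positive in 6 of 8 (median 0.03). That fell to 3 of 8 without CKO replicate 4 (median -0.05) and to 4 of 8 without CKO replicate 1 or WT replicate 2. Among them Agpat3 was at 0.27 ± 0.12 (edgeR adjusted p = 0.991). Lpcat4 was at 0.55 ± 0.32 on low levels, with means of 0.878 CPM in CKO and 0.604 CPM in WT livers. Acyl-CoA synthetases were negative in 5 of 7 (median -0.14) and in 4 to 6 of 7 without 1 library (median -0.24 to -0.05), with Slc27a5 at -0.25 ± 0.15 and Acsl4 at -0.30 ± 0.24. PPAR alpha targets were positive in 10 of 13 (median 0.14), and in 7 to 12 of 13 over all alternatives run (median 0.08 without WT replicate 3 to 0.32 without WT replicate 4). Ehhadh, a peroxisomal oxidation enzyme gene, was at 373 ± 73.7 CPM in CKO and 201 ± 51.4 CPM in WT livers (0.89 ± 0.19, edgeR adjusted p = 0.171), and Cyp4a14 at 1.25 ± 0.47 (adjusted p = 0.844).

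The genes whose pattern over the 10 libraries lay closest to Elovl2, among 11516 compared by Pearson's r of log2 CPM, were Brap (r = 0.96), Tmem86a (0.95) and Trpm4 (0.93). Tmem86a and Trpm4 were among the genes that rose, with log2 fold changes of 1.33 ± 0.18 and 1.31 ± 0.21 (edgeR adjusted p = 0.0117 and 0.0281), while Brap was at 0.32 ± 0.09 (adjusted p = 0.434). Closest to Scd1 were Cars (r = 0.96), Slc17a1 (0.92) and Pklr (0.92). Pklr, the liver pyruvate kinase gene, was at 111 CPM in CKO and 245 CPM in WT livers on average (-1.14 ± 0.22, edgeR adjusted p = 0.0944), Cars at -0.44 ± 0.12 and Slc17a1 at -0.45 ± 0.14. The r values include the genotype difference itself and describe these 10 libraries.

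Cpt1a lies on mouse chromosome 19 (GRCm38, GENCODE M21), and so do 5 of the 9 genes, at 6.68 Mb from its end for Fads2, 6.80 Mb for Fads1, 40.9 Mb for Scd2, 41.0 Mb for Scd1 and 42.8 Mb for Elovl3. Fads2 spans 10062765 to 10101746 on the minus strand and Fads1 10182888 to 10196877 on the plus strand. Scd1 spans 44394455 to 44407879 and Scd2 44293674 to 44306864. Elovl2 lies on chromosome 13 at 41182381 to 41220405, Elovl5 on chromosome 9, Elovl6 on chromosome 3 and Elovl1 on chromosome 4. Exons of Elovl1, Elovl3 and Elovl6 overlap opposite-strand genes by 53, 10 and 34 bases, and those genes had 179, 36 and 218 counts over all libraries, against 6615, 12140 and 5921 for Elovl1, Elovl3 and Elovl6.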

How the data were processed

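Liver RNA of 5 CKO and 5 WT samples was sequenced. The tools fastp, HISAT and RSEM and the build GRCm38.p5 are named in the submitters' processing notes. The sources used here give no versions, settings or strand. The authors deposited 1 table with an expected count and a TPM per gene and library, a gene length, and, from their own comparison, log2 fold changes with p-values. Columns named CON were matched to the WT titles by number. Expected counts were rounded, which altered 21.4% of those above 0 (any fractional part counted as not whole), and 5 rows with no gene were left out.

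Genes were filtered with filterByExpr, scaled with TMM and tested with edgeR 4.0.16 (R 4.3.3, glmQLFit with robust = TRUE) on genotype, with Benjamini-Hochberg adjustment over 13619 genes. SE was derived from the F statistic. Log2 CPM used a prior count of 2. At these depths 3 counts correspond to 0.111 to 0.146 CPM, for counting error only. All 45 pairs of libraries differed by more than counting noise (lowest chi-square divided by its degrees of freedom 30.1).

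The 9 genes, the gene lists and the tests were chosen with earlier results of these data known. Named were the 9 genes, Cpt1a, called list genes or otherwise the 2 with the smallest p, and the 3 genes most like Elovl2 and Scd1. Hacd1, Slc25a1, Mlxipl, Nr1h3 and Ppara were named outside that rule. Alternatives were DESeq2 1.42.0, limma 3.58.1 (voom, and log2(TPM + 1) or log2(TPM + 0.1)), other scalings and filters, no robust estimation, a replicate block and each library left out.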

Additional observations from a re-analysis of the deposited data

Results flagged for a closer look

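With a test for outlying libraries run on 38 sets of 5 values (each gene's log2 CPM and TPM and the route difference, in each genotype), 5 sets held a library farther from the others than the 95% limit allows. Chance alone flags about 1 set in 20, but these sets are not independent, as each gene enters both as log2 CPM and as TPM of the same libraries. The number of flagged sets was not tested against that rate. Elovl5 was set apart in both genotypes, at a log2 CPM of 8.63 in CKO replicate 4 and 8.59 in WT replicate 4, and in TPM at 170.3 in WT replicate 4. WT replicate 4 was also set apart in TPM for Scd1, at 565.8, and for Elovl1, at 29.77. Without that library the WT mean of Scd1 was 90.5 ± 15.7 TPM and that of Elovl5 52.4 ± 2.98 TPM (SD, n = 4 each).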

How the results depend on the processing

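Of the 9 genes, the 4 of the polyunsaturated route kept a positive sign and Scd1, Scd2 and Elovl6 a negative one in all 22 alternatives (10 of them without 1 library each). Elovl3, at -0.09, was positive with library totals (0.012), limma-voom (0.0646), log2(TPM + 1) (0.0302), log2(TPM + 0.1) (0.0305) and without WT replicates 1 and 2 (0.12). Over the fits without 1 library Elovl3 lay between -0.17 and 0.0641, positive without WT replicate 1, and Elovl1 between -0.0519 and 0.0873. Elovl1 was negative without CKO replicate 3, CKO replicate 4 or WT replicate 5. DESeq2 called 2 of the 9 genes and 93 of all genes, against 1 and 18. The number among the 9 was 0 with library totals, without a filter, without robust estimation, with either TPM fit, with the replicate block, without WT replicates 1 and 2 together and in every fit without 1 library (0 to 0). The number over all genes was 11 and 8 with the TPM fits at pseudocounts of 1 and 0.1, 10 without WT replicates 1 and 2, an alternative chosen after seeing the data, and 6 to 21 without 1 library. The log2(TPM + 0.1) scale moved the median of all genes to 0.08, against -0.02.

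Samples of the same number in both genotypes did not deviate together throughout (r of their deviations over genes from -0.41 to 0.43), so the replicate block, which called 26 genes and 0 of the 9, treats a shared number only. Under the block the adjusted p of Elovl2 was 0.166 and that of Scd1 0.0539. The route difference stayed between 1.22 and 1.34 over all alternatives run for it. Scd2, at 2.74 to 6.93 CPM, rests on the fewest counts.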

Other observations

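Genes of cholesterol synthesis and uptake under SREBP-2, which shares its processing with SREBP-1, were negative in 10 of 10 (median log2 fold change -0.26) and in 9 of 10 with the TPM fits, but in 7 of 10 without WT replicate 4 (median -0.09). Without CKO replicate 2 or 3 or WT replicate 5 the median was -0.11, -0.57 or -0.42. With all libraries 0 of the 10 passed by edgeR or DESeq2, and 0 had an unadjusted edgeR p under 0.05. Hmgcs1 was at 86.9 ± 29.5 CPM in CKO and 135 ± 77.7 CPM in WT livers (-0.63 ± 0.33, edgeR adjusted p = 1.0), and WT replicate 4, at 269 CPM, was its highest library as it was for Scd1 and Elovl6. Sqle, a monooxygenase gene of the same path, was at 13.0 ± 7.21 CPM in CKO and 22.5 ± 14.7 CPM in WT livers, with WT replicate 4 again highest at 45.3 CPM.

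Clock genes, listed because Elovl3 is rhythmic in mouse liver, were positive in 8 of 13 (median 0.04), or 11 of 13 on library totals and 6 of 13 without CKO replicate 5 or WT replicate 4, and 0 passed by edgeR or DESeq2, with 0 at an unadjusted p under 0.05. Per3 was at 38.9 ± 12.9 CPM in CKO and 29.3 ± 4.19 CPM in WT livers (0.41 ± 0.21, edgeR adjusted p = 1.0), and Dbp, a clock output factor, at 155 ± 16.8 CPM in CKO and 132 ± 33.6 CPM in WT livers (0.23 ± 0.16).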
